A study of Mus musculus with 2 samples.

Results

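The genes described here encode the MHC class I antigen presentation pathway: the heavy chains H2-K1, H2-D1, H2-Q4 and H2-T23, the light chain B2m, the peptide transporter subunits Tap1 and Tap2, the loading factor Tapbp, and the immunoproteasome subunits Psmb8 and Psmb9. They are 10 of the 17592 genes in the deposited table, were chosen by name for their role in this pathway, and all 10 were measured. They were followed across cell types of the dentate gyrus, the part of the hippocampus that forms granule neurons in adult life. The samples were 2 libraries from C57BL/6 mice, 1 labelled old (16 months) and 1 labelled young (3 months), of live cells sorted without propidium iodide after papain dissociation and counted with 10x Genomics 3′ chemistry. The labels name no transgene or treatment, and how many animals went into a library is not given in the sources used here. No value below has a replicate check, and the 95% intervals cover counting error only.

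The old library held 1430 cells and 7451506 unique molecular identifiers (UMIs, 1 per captured transcript), with a median of 3856 per cell, and the young library held 2463 cells and 16217559 UMIs, with a median of 6663. The libraries shared 1401 barcodes, 98.0% of those of the old library, and 1111 of 1113 shared barcodes of brain classes (99.8%) fell in the same class in both. The brain cells of both libraries were therefore counted as 1 sample, values are from the young library unless the old is named, and no difference or likeness of the ages can rest on these files. Another 289 old and 1315 young cells had almost no mitochondrial UMIs and were set aside from the brain classes.

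Class I molecules hold peptides cut from the cell's own proteins and show them at the surface to CD8 T cells. Proteasomes cut the peptides, the TAP transporter moves them into the endoplasmic reticulum, and tapasin helps them onto a heavy chain paired with beta-2-microglobulin. Interferons raise most of these genes in many tissues, and the resting brain, its neurons above all, is known for low class I expression.

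Of the 10 genes, 9 lie in the mouse MHC region of chromosome 17, over 2.12 Mb (GENCODE M21, GRCm38), and B2m lies at chr2:122147686-122153083 on the plus strand. Psmb9, Tap1, Psmb8 and Tap2 sit within 34.3 kb, between chr17:34181987 and chr17:34216321, and Psmb9 and Tap1 are read in opposite directions from RefSeq starts 226 bases apart. The heavy chains flank them: H2-K1 at chr17:33996017-34000347 (minus strand), H2-D1 at chr17:35262730-35267499 (plus strand), H2-Q4 at chr17:35379617-35385290 (plus strand) and H2-T23 at chr17:36029773-36032855 (minus strand). Tapbp is at chr17:33915899-33929292 on the plus strand. The GENCODE spans of Psmb9 and Tap1 overlap by 212 bases.

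Promoter sequence is shown because the upstream regions of the heavy chains and B2m are where interferon and NF-kappa B signals are known to reach them. The part of these sequences in the levels across cell types below was not tested. RefSeq promoter windows of 300 bases, 250 of them before the start, were available for 9 of the 10 genes on GRCm38.p6. In the 30-base blocks of H2-K1 (chr17:34000429-34000458, minus strand), H2-D1 (chr17:35262923-35262952, plus strand) and H2-Q4 (chr17:35379443-35379472, plus strand), capitals mark a kappa B-type match (GGG, any 2 bases, TTCCC) and, on the other strand, an interferon-type match (GAA, any 2 bases, GAAA). The H2-D1 block is upstream of the RefSeq start but inside the GENCODE gene span given above, with all 30 bases in an annotated untranslated region.
H2-K1 block: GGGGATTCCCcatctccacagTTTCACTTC
H2-D1 block: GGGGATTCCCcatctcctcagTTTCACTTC
H2-Q4 block: gGGGATTTCCCatctccccagTTTCACTTC

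The H2-K1 and H2-D1 blocks were identical at 29 of 30 bases, and the H2-Q4 block matched each of them at 28 of 30. Searched on both strands, the kappa B-type letters were in 1.75% and the interferon-type letters in 7.52% of 32851 RefSeq promoter windows, and among the 9 genes each was in the same 3 heavy chains. B2m and H2-T23 instead had a longer form (GAAA, any 2 bases, GAAA), found in 3.44% of windows. The next lines give the bases before the start of H2-K1 (chr17:34000349-34000528, minus strand) and of B2m (chr2:122147506-122147685, plus strand), with these matches, TGACG (in 20.8% of windows and 6 of the 9 genes) and CCAAT (in 37.4% of windows and 8 of the 9) in capitals, and no 2 matches overlapped in them.
H2-K1 promoter: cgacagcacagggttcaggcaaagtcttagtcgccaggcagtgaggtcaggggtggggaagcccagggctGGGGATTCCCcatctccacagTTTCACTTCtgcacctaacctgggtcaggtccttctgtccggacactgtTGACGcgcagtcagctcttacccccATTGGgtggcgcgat
B2m promoter: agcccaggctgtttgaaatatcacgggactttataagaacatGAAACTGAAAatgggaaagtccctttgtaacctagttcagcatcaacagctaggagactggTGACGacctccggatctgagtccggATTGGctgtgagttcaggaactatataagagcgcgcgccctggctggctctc

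All cells of both libraries were clustered together, and the low-mitochondrial clusters were then set aside. The class I genes, the other antigen presentation and interferon genes listed here and the microglial markers summed above other classes below were left out of the clustering. Clusters were called after a cell type, as "-like", from that type's markers. The classes with at least 30 young cells were microglia-like (366 cells), astrocyte-like (304), endothelial-like (129), mature oligodendrocyte-like (79), pericyte-like (68), neuroblast-like, which holds immature granule neurons (58), and oligodendrocyte precursor-like (OPC-like, 48). All 13 microglial, 12 endothelial, 9 pericyte, 10 OPC and 12 mature oligodendrocyte markers passed in their class, 12 of 13 in the neuroblast-like class, and 14 and 6 of 14 in the larger and the smaller astrocyte-like cluster. No cluster took the name of mature granule neurons. The immediate early genes Atf3, Egr1 and Jun were among the leading genes of microglia-like cells, genes that dissociation and other stimuli are known to raise.

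Endothelial-like and microglia-like cells held most class I RNA. The 10 genes together had 38.0 UMIs per 10,000 (36.2 to 39.8) in endothelial-like cells and 32.45 (31.8 to 33.1) in microglia-like cells, a ratio of 1.17 (1.11 to 1.23). Pericyte-like cells followed with 8.68 (7.49 to 10.0), OPC-like cells with 6.35 (5.55 to 7.24) and astrocyte-like cells with 4.56 (4.13 to 5.03). Neuroblast-like cells had 1.23 (0.928 to 1.60) and mature oligodendrocyte-like cells 0.955 (0.741 to 1.21), and the interval of their ratio, 1.29 (0.888 to 1.87), includes 1. The other neighbours in this order differed beyond counting error in the young library. Pericyte-like stood over OPC-like cells by a ratio of 1.37 (1.12 to 1.67) and OPC-like over astrocyte-like cells by 1.39 (1.18 to 1.64). In the old library the OPC-like and astrocyte-like levels were closer, at 5.45 (180 UMIs) and 4.99 (485 UMIs), so the order of these 2 classes is less sure. In the set-aside low-mitochondrial cells the 10 genes had 0.0717 UMIs per 10,000 (0.0559 to 0.0906).

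**Figure D1:**
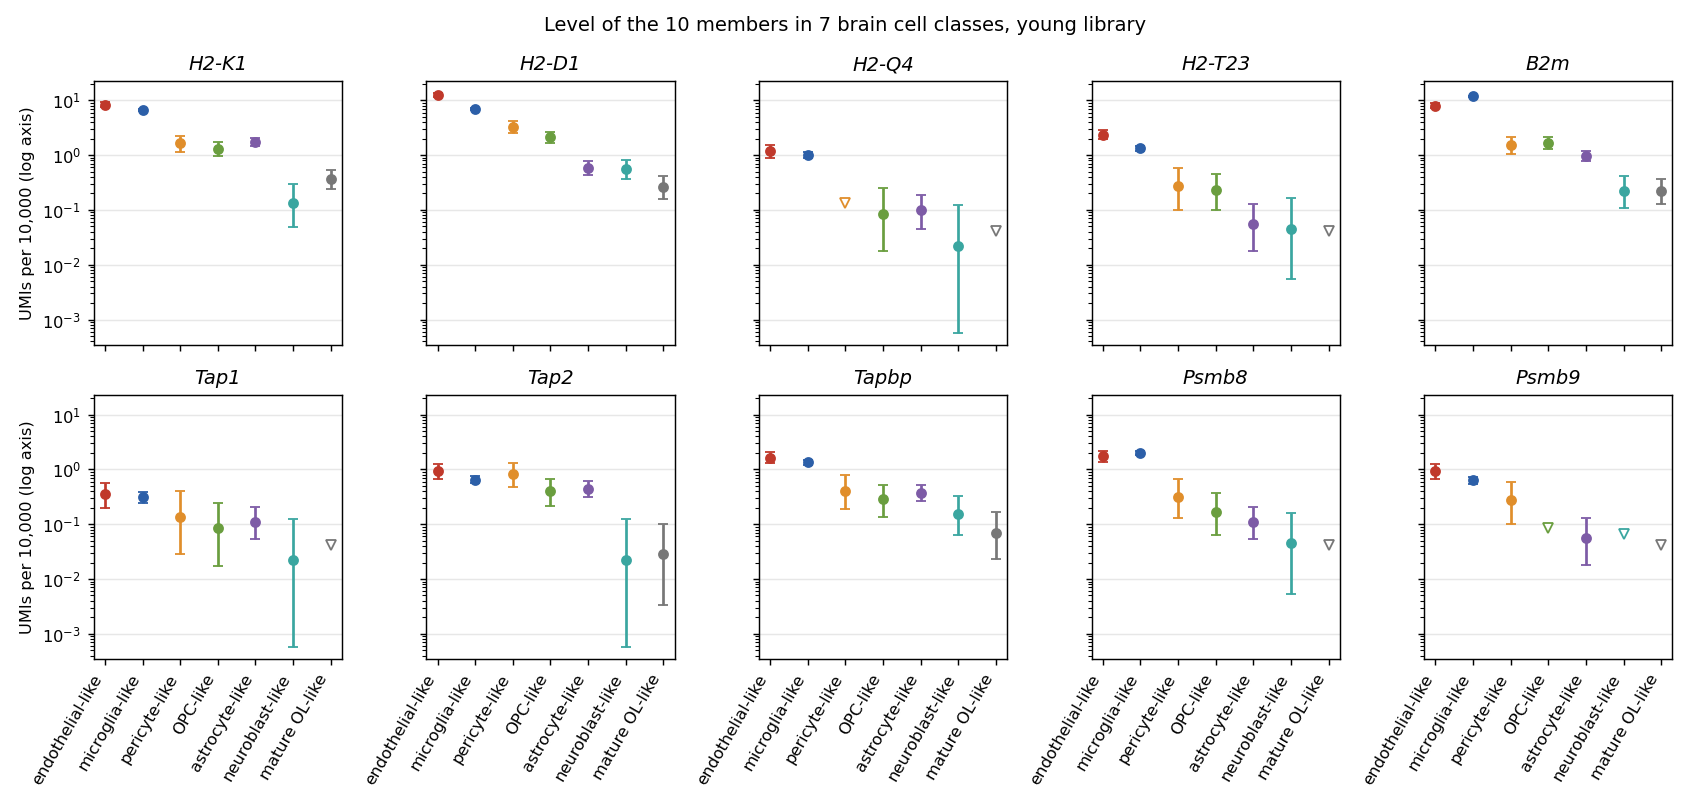
Level of each class I gene in 7 brain classes of the young library, as UMIs per 10,000 on a log axis, with 95% Poisson intervals as bars. Open triangles mark classes with no UMI and stand at the level that 3 UMIs would give. Endothelial-like and microglia-like cells are the 2 highest classes for 9 of the genes, and Tap2 has pericyte-like cells between them.

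Among cells, the summed level in endothelial-like cells had a 10th percentile of 14.3, a median of 33.8 and a 90th percentile of 64.1 UMIs per 10,000. Microglia-like cells had 20.3, 31.2 and 45.65 at the same points. Median depth was 3237 UMIs in endothelial-like and 7930 in microglia-like cells, and counting noise widens the spread of shallower cells, so these spreads were not compared. Astrocyte-like cells had a median of 1.62 and a 90th percentile of 12.2. A UMI of at least 1 of the genes was seen in 100% of microglia-like cells, 99.2% of endothelial-like cells, 89.6% of OPC-like, 88.2% of pericyte-like, 56.9% of neuroblast-like, 52.6% of astrocyte-like and 44.3% of mature oligodendrocyte-like cells. Median depth differed from 1912 UMIs per astrocyte-like cell to 9609 per mature oligodendrocyte-like cell. When each cell was thinned to 1000 UMIs, the shares were 95.9% in endothelial-like, 95.6% in microglia-like, 57.6% in pericyte-like, 55.3% in OPC-like, 28.5% in astrocyte-like, 10.4% in mature oligodendrocyte-like and 7.02% in neuroblast-like cells, so astrocyte-like cells stood above neuroblast-like cells at equal depth and below them at full depth. Thinning left out 41 astrocyte-like, 6 endothelial-like, 3 microglia-like, 2 pericyte-like, 2 mature oligodendrocyte-like, 1 OPC-like and 1 neuroblast-like cell.

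RNA released by broken microglia can enter other cells' droplets, so 7 microglial markers (C1qa, C1qb, C1qc, Cx3cr1, P2ry12, Tmem119 and Csf1r) were measured beside the class I genes. In astrocyte-like cells the class I genes stood at 14.1% of their microglial level (12.7 to 15.5), and the markers at 2.56% of theirs. Pericyte-like cells had the class I genes at 26.75% and the markers at 3.525%, and OPC-like cells had them at 19.6% and 3.22%. In neuroblast-like cells the class I genes stood at 3.80% (2.86 to 4.95) and the markers at 0.115%, and in mature oligodendrocyte-like cells at 2.94% (2.28 to 3.73) and 0.134%. In the old library these gaps were smaller, with the class I genes at 4.28% and the markers at 1.10% in neuroblast-like cells, and at 3.46% and 0.792% in mature oligodendrocyte-like cells. All 7 markers had UMIs in every class, so none was at 0.

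Called doublets carried most marker UMIs in endothelial-like, pericyte-like, OPC-like and astrocyte-like cells. With them left out, the markers had 1.09 UMIs per 10,000 in endothelial-like cells, against 7.61 with all cells, while the class I genes had 38.8, against 38.0. Without doublets pericyte-like cells had 7.91 class I and 1.84 marker UMIs per 10,000, OPC-like cells 5.66 and 0.833, and astrocyte-like cells 4.08 and 3.24. Summed over 12 endothelial markers, pericyte-like cells stood at 1.85% of the endothelial level, OPC-like cells at 1.13%, astrocyte-like cells at 0.874% and microglia-like cells at 0.237%. The part of this carried RNA in single class I genes was not tested.

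**Figure D2:**
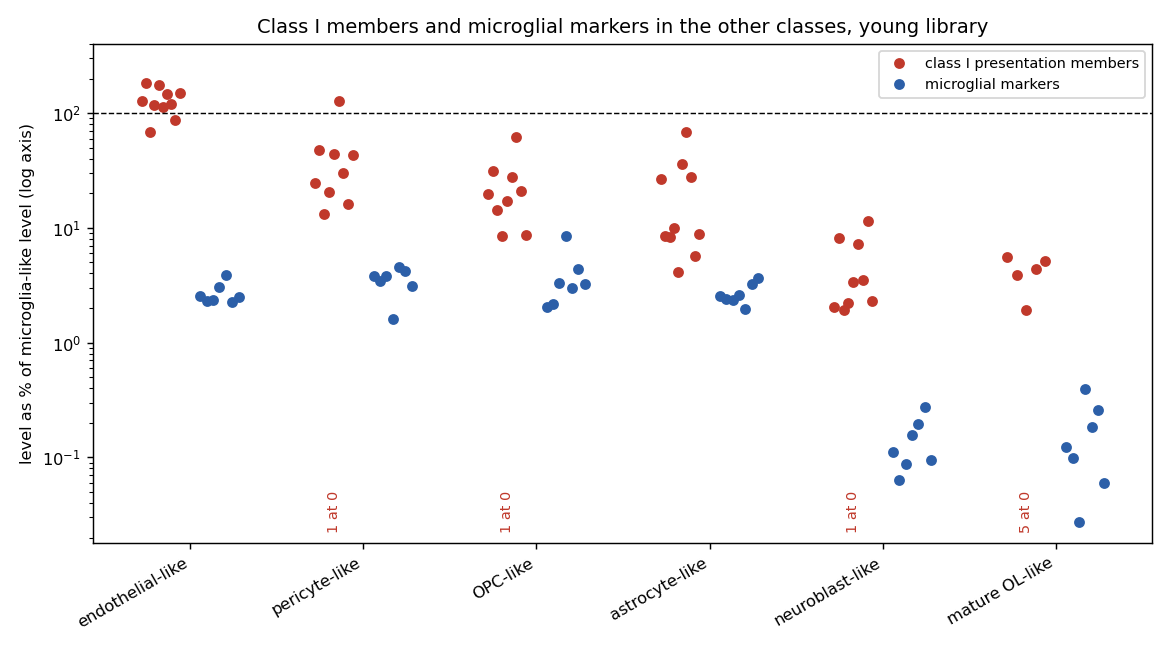
Level of each class I gene (red, 10 genes) and of each of 7 microglial markers (blue) in 6 classes, as a percentage of its level in microglia-like cells, on a log axis, with the dashed line at 100%. Vertical labels give how many genes had no UMI. Class I genes in astrocyte-like cells lie between 4.13% and 68.6%, and the markers between 1.97% and 3.67%.

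The classical heavy chains H2-K1 and H2-D1, which present peptides to CD8 T cells, were highest in endothelial-like cells. H2-D1 had 12.5 UMIs per 10,000 (11.5 to 13.6) there and 6.83 (6.54 to 7.14) in microglia-like cells, a ratio of 1.83 (1.67 to 2.01). Pericyte-like cells had 3.27, OPC-like 2.13, astrocyte-like 0.586, neuroblast-like 0.560 (25 UMIs) and mature oligodendrocyte-like cells 0.267. The astrocyte-like and neuroblast-like levels of H2-D1 could not be told apart (ratio 1.05, 0.639 to 1.76), and all other neighbours in its order could.

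H2-K1 had 8.33 UMIs per 10,000 (7.51 to 9.21) in endothelial-like cells and 6.60 (6.31 to 6.90) in microglia-like cells, a ratio of 1.26 (1.13 to 1.41). Astrocyte-like cells came next with 1.75 (1.49 to 2.04), followed by pericyte-like cells with 1.64 and OPC-like cells with 1.30, each within counting error of the class above it. Mature oligodendrocyte-like cells had 0.365 (26 UMIs) and neuroblast-like cells 0.134 (6 UMIs). H2-K1 thus took the astrocyte-like class to a higher place in its order than H2-D1 did.

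Of the UMIs of both classical heavy chains, H2-D1 made up 25.1% (19.4 to 31.5) in astrocyte-like cells, 42.2% (27.7 to 57.9) in mature oligodendrocyte-like and 50.9% (49.3 to 52.5) in microglia-like cells. The share was 60.1% (56.9 to 63.2) in endothelial-like, 62.0% (52.7 to 70.7) in OPC-like, 66.7% (56.95 to 75.45) in pericyte-like and 80.65% (62.5 to 92.55) in neuroblast-like cells. The astrocyte-like interval lay below those of the 5 classes from microglia-like upward in this order. In the old library, whose brain cells are mostly the same barcodes, the astrocyte-like share interval was 19.6 to 31.03% and the neuroblast-like share 66.7%. The 3′ ends of both genes share some sequence: of the 31-base words in the last 500 bases of their transcripts, 31.9% of those of H2-D1 and 14.0% of those of H2-K1 occur in another gene, 18.4% and 8.88% in each other. How reads of such words were assigned is not given in the labels, and its part in the shares was not tested.

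**Figure D3:**
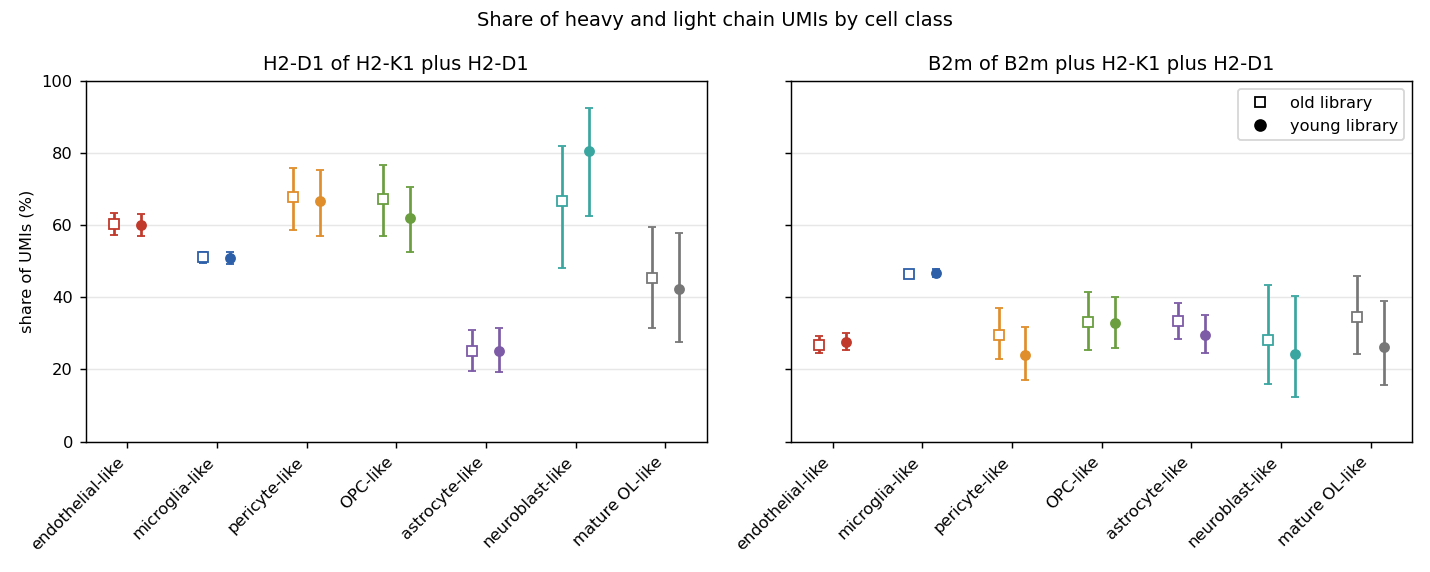
Share of H2-D1 in the UMIs of H2-K1 and H2-D1 (left) and of B2m in the UMIs of B2m, H2-K1 and H2-D1 (right), in percent, by class, with exact 95% binomial intervals as bars. Open squares are the old library and filled circles the young library. H2-D1 has its lowest share in astrocyte-like cells, and B2m its highest share in microglia-like cells.

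The nonclassical heavy chains H2-T23 (Qa-1, a ligand of NKG2A receptors on NK cells) and H2-Q4 were at lower levels in the same classes. H2-T23 had 2.35 UMIs per 10,000 (1.93 to 2.84) in endothelial-like cells and 1.34 (1.21 to 1.48) in microglia-like cells, a ratio of 1.76 (1.41 to 2.19). It stood at 0.273 in pericyte-like, 0.227 in OPC-like, 0.0553 in astrocyte-like and 0.0448 in neuroblast-like cells (2 UMIs). H2-Q4 had 1.18 in endothelial-like and 1.01 in microglia-like cells, which could not be told apart (ratio 1.17, 0.857 to 1.57). The next level of H2-Q4 was 0.0995 in astrocyte-like cells, and no UMI was seen in 68 pericyte-like cells, which allows up to 4.41% of cells with a UMI at this depth and sets no limit on cells that express the gene. In the old library pericyte-like cells had 3 H2-Q4 UMIs.

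B2m is the light chain that heavy chains need for stable display at the surface. It had the most UMIs of the 10 genes over all brain cells and reversed the order of the top classes. It had 11.8 UMIs per 10,000 (11.4 to 12.2) in microglia-like cells and 8.0 (7.20 to 8.86) in endothelial-like cells, a ratio of 1.47 (1.32 to 1.64). OPC-like cells had 1.67, pericyte-like 1.545, astrocyte-like 0.984, mature oligodendrocyte-like 0.225 (16 UMIs) and neuroblast-like cells 0.224 (10 UMIs). B2m made up 46.7% (45.6 to 47.85) of the UMIs of B2m, H2-K1 and H2-D1 in microglia-like cells, 32.8% in OPC-like, 29.7% in astrocyte-like, 27.7% (25.3 to 30.2) in endothelial-like cells and, in pericyte-like cells, 23.9%. A 3′ library counts 1 UMI per captured transcript whatever its length, so these levels were not scaled by length, and capture can still differ between genes.

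Tap1 and Tap2 form the peptide transporter, and their levels were low throughout. Tap1 had 0.349 UMIs per 10,000 (16 UMIs) in endothelial-like and 0.308 (90 UMIs) in microglia-like cells, and no neighbouring classes in its order could be told apart. Classes further apart could: Tap1 stood at 35.8% (16.6 to 69.0) of its microglia-like level in astrocyte-like and 7.26% (0.182 to 41.5) in neuroblast-like cells. In pericyte-like cells, at 44.2% (8.95 to 133.4), it could not. Tap2 had 0.937 in endothelial-like, 0.818 in pericyte-like, 0.644 in microglia-like, 0.442 in astrocyte-like and 0.397 in OPC-like cells. Neighbours among its 3 highest classes could not be told apart, though endothelial-like cells stood at 145.5% (101.9 to 203.6) of the microglia-like level. Microglia-like cells exceeded astrocyte-like cells by a ratio of 1.46 (1.03 to 2.11). It had 0.0281 (2 UMIs) in mature oligodendrocyte-like cells and 0.0224 (1 UMI) in neuroblast-like cells.

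Tapbp encodes tapasin, which bridges the transporter and the heavy chain. It had 1.635 UMIs per 10,000 in endothelial-like and 1.36 in microglia-like cells (ratio 1.21, 0.928 to 1.54), then 0.409 in pericyte-like, 0.376 in astrocyte-like, 0.284 in OPC-like, 0.157 in neuroblast-like and 0.0702 in mature oligodendrocyte-like cells. In mature oligodendrocyte-like cells it had 5 UMIs. H2-Q4, H2-T23, Tap1, Psmb8 and Psmb9 each had a UMI in 0 of these 79 cells, which allows up to 3.80% of cells with a UMI at this depth and sets no limit on cells that express them. The old library, with 78 cells in this class, had 2 UMIs of Psmb8, 1 of H2-Q4, 1 of H2-T23 and none of Tap2.

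Psmb8 and Psmb9 are catalytic subunits of the immunoproteasome, which cuts more peptides of the kind class I binds, and they replace Psmb5 and Psmb6 of the standard proteasome, as Psmb10 replaces Psmb7. Psmb8 had 1.96 UMIs per 10,000 (1.81 to 2.13) in microglia-like and 1.72 (1.36 to 2.15) in endothelial-like cells, which could not be told apart (ratio 1.14, 0.900 to 1.46). Psmb9 had 0.937 in endothelial-like and 0.631 in microglia-like cells, a ratio of 1.49 (1.04 to 2.08). Pericyte-like cells had 0.318 of Psmb8 and 0.273 of Psmb9. No Psmb9 UMI was seen in OPC-like, neuroblast-like or mature oligodendrocyte-like cells.

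As a share of its pair, Psmb8 made up 61.95% (58.7 to 65.1) of Psmb8 and Psmb5 in microglia-like cells, 43.9% (36.5 to 51.5) in endothelial-like, 16.3% in pericyte-like, 5.81% in astrocyte-like, 4.69% in OPC-like and 2.17% in neuroblast-like cells. In mature oligodendrocyte-like cells it was 0, with an upper bound of 2.20%. Psmb9 made up 31.8% of its pair in microglia-like and 27.4% in endothelial-like cells, 8.96% in pericyte-like and 2.94% in astrocyte-like cells. Psmb10, no member of the set, was less uneven: 53.8% of its pair in microglia-like, 51.9% in endothelial-like, 39.1% in astrocyte-like, 39.0% in pericyte-like, 29.5% in OPC-like, 13.2% in neuroblast-like and 9.48% in mature oligodendrocyte-like cells. Over the 6 subunits together, the inducible ones made up 51.3% (49.1 to 53.5) in microglia-like cells and 40.6% (36.1 to 45.2) in endothelial-like cells, and these intervals do not overlap. The standard subunits were at 3.39 UMIs per 10,000 in microglia-like and 6.04 in endothelial-like cells, so that the lower share in endothelial-like cells went with a higher level of standard subunits, while the inducible subunits had 3.56 and 4.12.

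**Figure D4:**
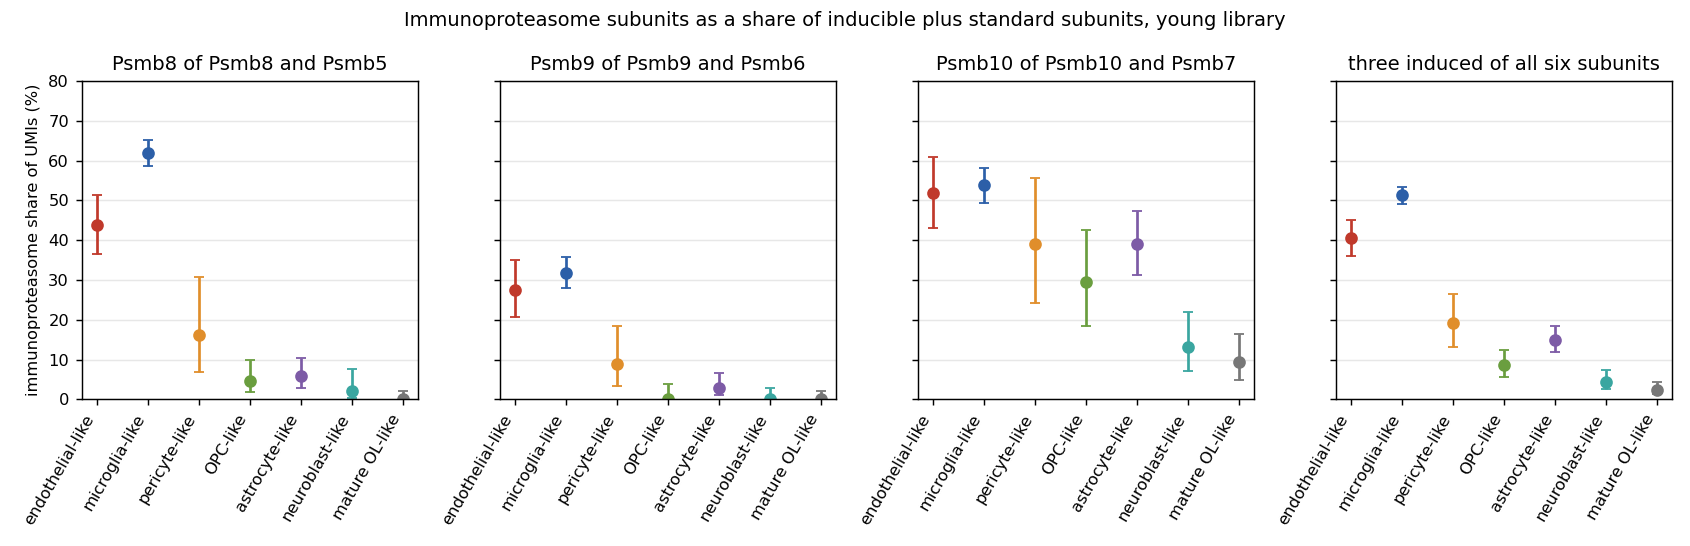
Share of inducible subunits in the UMIs of inducible plus standard subunits, in percent, by class of the young library, for each pair and for all 6 subunits, with exact 95% binomial intervals as bars. Psmb8 exceeds 40% of its pair in microglia-like and endothelial-like cells and lies under 20% in the other 5 classes.

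Each class was also set against all other brain-class cells, with 0.1 UMIs per 10,000 added to both sides and a call at 2-fold, a description with no test since cells of 1 library are not replicates. All 10 genes had at least the 50 UMIs asked of a gene. These UMIs were counted over all brain-class cells, so a gene can pass mainly through a class where it is high. In microglia-like cells 8 of 10 were at least 2-fold higher, where 9.25% of all 10402 genes were, and none was 2-fold lower, where 26.7% of all genes were. The log2 ratios ran from 0.63 (Tap2) to 2.03 (B2m), with a median of 1.23 beside -0.41 over all genes. In endothelial-like cells 4 of 10 were 2-fold higher (H2-D1, H2-T23, Psmb9 and H2-K1), where 8.88% of all genes were, and none 2-fold lower (19.6% of all genes), with a median of 0.91 beside -0.13. The reference for endothelial-like cells holds the microglia-like cells, and the reverse, so the highest classes lower each other's ratios.

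In the other classes no class I gene reached a 2-fold higher level, which 8.65% of all genes did in pericyte-like, 12.3% in OPC-like, 14.2% in astrocyte-like, 12.1% in neuroblast-like and 8.28% in mature oligodendrocyte-like cells. Of the 10 genes, 5 were 2-fold lower in pericyte-like cells (20.3% of all genes), 8 in OPC-like cells (13.4%), 8 in astrocyte-like cells (16.2%), 10 in neuroblast-like cells (20.0%) and 10 in mature oligodendrocyte-like cells (25.7%). The median log2 ratios were -1.19, -1.69, -1.92, -2.74 and -3.19 in that order of classes. Genes can pass the minimum through endothelial-like and microglia-like cells, so the counts of lower genes are no result about the classes where they are low. Tap2 stood apart from the rest at 0.64 in pericyte-like cells and -0.17 in astrocyte-like cells. With 1 UMI per 10,000 added in place of 0.1, the genes called numbered 2 of 10 in microglia-like and 1 of 10 in endothelial-like cells, since many of the genes have levels near or under 1. The shares of all genes given above are at 0.1, so these counts have no share to be set against.

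Of 8 loading and trimming genes of the endoplasmic reticulum, 2 were 2-fold higher and none 2-fold lower in microglia-like cells, and none higher and 2 lower in endothelial-like cells. The endothelial-like counts lie near the 8.88% of all genes that were higher and the 19.6% that were lower. In microglia-like cells 9.25% of all genes were higher and 26.7% lower. Calr, the chaperone calreticulin of the loading complex, had 3.73 UMIs per 10,000 in endothelial-like and 10.2 in microglia-like cells, while Erap1, which trims peptides, had 0.414 and 0.237. Psme1, a subunit of the PA28 proteasome activator, had 2.83 in endothelial-like and 1.55 in microglia-like cells, and 3 of the 5 genes of its list were 2-fold higher in endothelial-like cells. Of the other classical and nonclassical heavy chains 8 of 15 were measured and 5 passed 50 UMIs. H2-T22 had 0.632 in endothelial-like and 0.278 in microglia-like cells, but 44.5% of its 3′ words occur in H2-T10, and H2-M3 had 0.349 and 0.356. For H2-Q6, 50.0% of 3′ words occur elsewhere and its counts are uncertain.

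Class I-like chains of other genes followed other patterns. Fcgrt, the neonatal Fc receptor, had 5.30 UMIs per 10,000 (4.65 to 6.01) in endothelial-like, 0.840 in astrocyte-like and 0.7985 in microglia-like cells. Hfe, which helps control iron uptake, had 1.40 in microglia-like and 0.414 in endothelial-like cells. Cd1d1, which presents lipids to NKT cells, had 1.01 (0.7355 to 1.35, 45 UMIs) in neuroblast-like and 0.1405 in microglia-like cells, the opposite of every member. Of 8 class II genes that passed, 8 were 2-fold lower in endothelial-like cells, where 19.6% of all genes were. The same count was 8 in OPC-like (13.4% of all genes), astrocyte-like (16.2%), neuroblast-like (20.0%) and mature oligodendrocyte-like cells (25.7%), and 6 in pericyte-like cells (20.3%). In microglia-like cells 4 were higher (9.25%) and 4 lower (26.7%). The 50 UMIs were counted over all brain-class cells, and Cd74, H2-Eb1, H2-Aa and H2-Ab1 were leading genes of the B cell-like cluster. A gene can pass through such cells alone, so the counts of lower genes are no result about these classes. Cd74, the invariant chain, had no UMI in endothelial-like cells and 0.404 UMIs per 10,000 in microglia-like cells, and H2-Aa, a class II chain, had none in either.

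Of 9 regulators of class I transcription that passed, 1 was higher and 1 lower in endothelial-like cells, where 8.88% and 19.6% of all genes were. In microglia-like cells 3 were higher and none lower, where 9.25% and 26.7% of all genes were. Of 8 interferon receptor and signalling genes, 4 were higher and 2 lower in endothelial-like cells, and 2 were higher and 1 lower in microglia-like cells. The endothelial-like counts of regulators, and of lower signalling genes, lie near those shares of all genes. Irf8, a myeloid transcription factor, had 0.153 UMIs per 10,000 in endothelial-like and 5.82 in microglia-like cells, and Ifngr1, a subunit of the interferon gamma receptor, had 0.850 and 6.88. Ifnar1, a subunit of the type I interferon receptor, had 2.27 in endothelial-like and 0.250 in microglia-like cells. Nlrc5, a transactivator of class I genes, had 5 UMIs in endothelial-like and 2 in microglia-like cells. Of 22 interferon-stimulated genes measured, 13 passed the count minimum. Of these, 11 were 2-fold higher in endothelial-like cells, with a median log2 ratio of 2.12, where 8.88% of all genes were higher. The minimum includes UMIs of endothelial-like cells, so a gene can pass through that class alone, and this count is no result about it. In microglia-like cells 1 was higher and 2 lower, where 9.25% and 26.7% of all genes were. Ifitm3, an antiviral membrane protein, had 14.3 UMIs per 10,000 in endothelial-like and 0.106 in microglia-like cells.

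Within classes, cells were sorted by their UMIs of 14 interferon-stimulated genes that hold no member. In microglia-like cells the 10 class I genes had 31.5 UMIs per 10,000 in 270 cells with no such UMI, 32.2 in 64 cells with 1, and 39.8 in 32 cells with at least 2. The ratio of the last to the first was 1.26 (1.18 to 1.34), and H2-T23 had 1.21, 1.44 and 2.06 in the same order. In endothelial-like cells the levels were 31.8 in 40 cells, 31.2 in 24 and 42.0 in 65, a ratio of 1.32 (1.17 to 1.49), and H2-D1 had 10.5, 9.81 and 14.0. In astrocyte-like cells the levels were 4.01 in 273 cells, 7.06 in 22 and 8.48 in 9, a ratio of 2.11 (1.45 to 2.99). In the old library the ratio was 1.19 (1.13 to 1.26) in microglia-like, 1.12 (0.983 to 1.27) in endothelial-like and 1.37 (0.920 to 1.99) in astrocyte-like cells. Median depth moved with this sorting, at 2446, 2264 and 4332 UMIs in endothelial-like, 7570, 8863 and 9057 in microglia-like and 1826, 4787 and 3326 in astrocyte-like cells. Thinned to 1000 UMIs, the ratio was 1.03 (0.627 to 1.60) in microglia-like cells, with 6 cells left in the highest bin, 1.11 (0.866 to 1.42) in endothelial-like cells and 2.17 (0.582 to 5.72) in astrocyte-like cells, with 4 cells left in the highest bin. These intervals include both 1 and, in each class, the ratio at full depth, so the thinned counts were too few to tell these apart.

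Finer clustering divided the endothelial-like cells. At a Leiden resolution of 2, a cluster led by Ly6c1, Ly6a, Gkn3 and Tm4sf1 (22 cells) had 50.8 class I UMIs per 10,000 (46.4 to 55.55), and the other endothelial-like cluster (107 cells), led by Cldn5, Itm2a and Pltp, had 34.6 (32.7 to 36.6). Nearly all microglia-like cells divided into a cluster with Ccl4, Atf3 and Ccl3 among its leading genes (216 cells) at 33.05 (32.2 to 33.9) and a cluster led by Rgs10, C1qb and C1qa (147 cells) at 31.5 (30.5 to 32.6). Astrocyte-like cells divided into clusters of 169, 111 and 24 young cells, at 7.04 (6.05 to 8.15), 3.815 (3.33 to 4.35) and 1.63 (0.816 to 2.92), with a median depth over both libraries of 1264.5, 5186 and 2647 UMIs. These clusters were made from the same cells, so the differences are a description. The 10 leading genes of the smaller endothelial-like cluster also held Cldn5, Mgp, Flt1, Slc2a1, Id1 and Ifitm3, the last an interferon-stimulated gene. Whether any of them is tied to its class I level was not tested.

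Across the 7 classes the members ran in step. Pearson's r of log2 levels between pairs of members went from 0.592 (H2-Q4 and Tap2) to 0.992 (Tap1 and Tapbp), over 7 points that share a library and differ in depth. No r of other gene pairs is given as a background, and Psmb9 and H2-Q4 had no UMI in some of the classes. From cell to cell, pairs of members were weakly related: over 45 pairs the median r was 0.137 in endothelial-like cells, highest at 0.373 for H2-D1 and B2m, and 0.015 in microglia-like cells, highest at 0.276 for H2-K1 and H2-D1. The part of sparse counts in these low values was not tested. Of 10402 genes compared over the classes, the nearest to H2-K1 was Vwa5a (r 0.985), to H2-D1 Il10rb (0.980), to B2m Ecscr (0.984), to H2-Q4 Ubtd1 (0.995) and to H2-T23 Klf2 (0.991). The nearest to Tap1 was Tapbp, to Tap2 Lrp10 (0.967), to Psmb8 Sertad1 (0.995) and to Psmb9 Parp10 (0.996). Each was picked as the highest r of all genes compared, so a high value is no test of a link.

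The old and young tables gave nearly the same class I levels, as tables of mostly the same barcodes do. The 10 genes had 32.8 UMIs per 10,000 in old and 32.45 in young microglia-like cells, a ratio of 1.01 (0.982 to 1.04), and 37.8 in old and 38.0 in young endothelial-like cells, a ratio of 0.996 (0.933 to 1.06). Ratios in the other classes were 1.14 (0.9375 to 1.39) in pericyte-like, 1.09 (0.957 to 1.25) in astrocyte-like, 1.14 (0.780 to 1.67) in neuroblast-like and 1.19 (0.855 to 1.65) in mature oligodendrocyte-like cells. In OPC-like cells the level was 5.45 in old and 6.35 in young, a ratio of 0.8575 (0.701 to 1.05), and 0.977 over the 43 barcodes in the class in both libraries. The 7 microglial markers had 5.96 in old and 9.41 in young OPC-like cells, and over those 43 barcodes 5.96 in old and 3.01 in young. Whether that RNA took part in the OPC-like ratio was not tested.

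No class I gene with at least 50 UMIs in a class was 2-fold apart between old and young there. Such genes numbered 10 in microglia-like cells (0.198% of all genes were 2-fold apart), 9 in endothelial-like (0.268%), 3 in pericyte-like (0.184%), 3 in OPC-like (0.376%), 5 in astrocyte-like (0.163%), 0 in neuroblast-like (0.214%) and 1 in mature oligodendrocyte-like cells (0.2%). H2-T23 in microglia-like cells had 1.54 UMIs per 10,000 in old (492 UMIs) and 1.34 in young (390 UMIs), a ratio of 1.15 (1.01 to 1.32), and was the only case among the 10 genes and 7 classes whose interval left out 1. Under that minimum, counts were too few to read a difference: H2-Q4 had 4 UMIs in old and 1 in young neuroblast-like cells and 3 in old and 0 in young pericyte-like cells, and Psmb8 had 5 in old and 2 in young neuroblast-like cells. Microglial markers moved more than class I genes did in neuroblast-like cells, with 3.14 in old and 0.336 in young, a ratio of 9.34 (5.475 to 17.1).

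**Figure D5:**
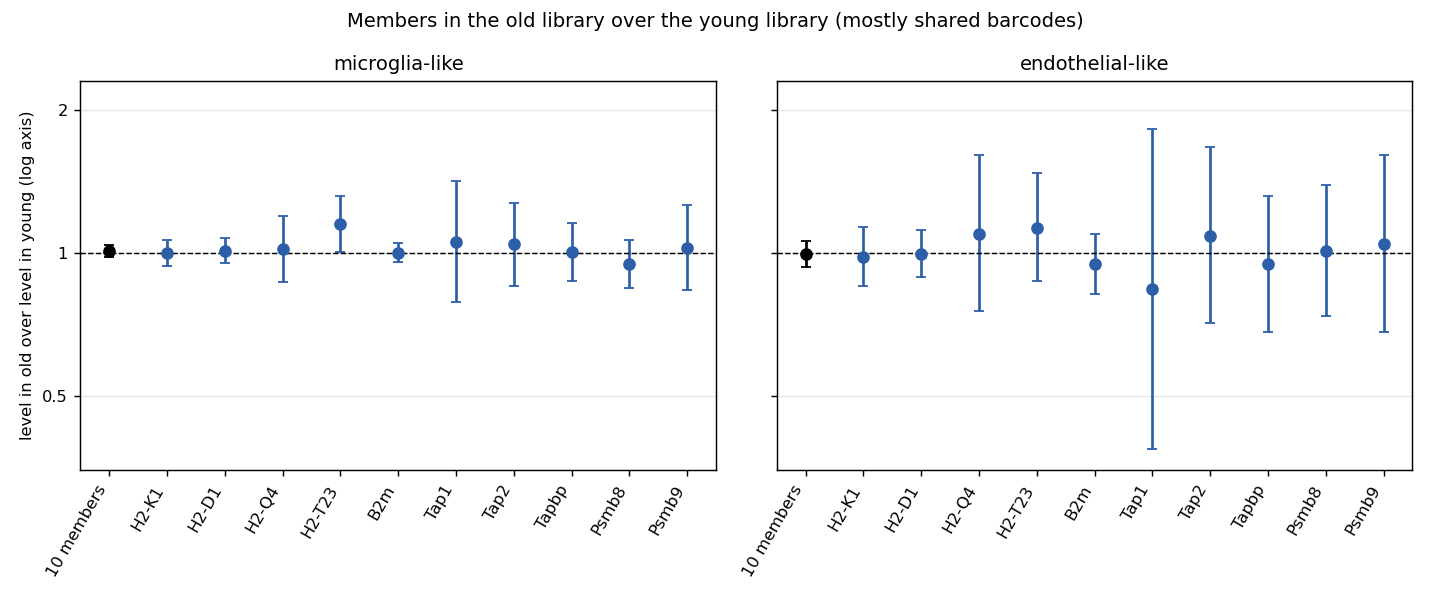
Level in the old library over level in the young library for the 10 genes together (black) and each gene (blue), in microglia-like and endothelial-like cells, on a log axis, with exact 95% intervals as bars and a dashed line at 1. Every ratio lies between 0.8 and 1.2, and most barcodes are shared by the libraries, so the plot is no comparison of ages.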

How the data were processed

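Per the labels' protocols, live dentate gyrus cells were sorted and sequenced with 10x Genomics 3′ kits. Per the submitters' processing notes, Cell Ranger 5.0.0 and the mm10 build were used, and neither source names the gene annotation or the cell filter. The deposited values are the natural log of 1 plus UMIs per 10,000, as read from the table: with the log undone, every cell summed to 10000. Counts were recovered from the smallest value above 0 in each cell, taken as 1 UMI: 100% of values were whole within 0.01, and these UMIs were summed. Which library a cell belongs to is in its name. The 10 genes and all gene lists were chosen with earlier results of these data known.

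All 3893 cells were kept. Scanpy 1.11.5 (Python 3.11.15, igraph 0.11.9) made Leiden clusters at resolution 1 from 2000 variable genes, 30 principal components and 15 neighbours. Class I and related genes, and the microglial markers used to follow carried RNA, were left out. A cluster took a name when at least 3 markers were in 25% of its cells at 4 times the level elsewhere and its 10 leading genes held no more markers of another class. Clusters with a median mitochondrial share under 1% were set aside. Scrublet called 23 old (1.61%) and 37 young cells (1.50%) as doublets, which were kept. Levels are summed UMIs per 10,000 with exact Poisson intervals, shares have exact Clopper-Pearson intervals, and ratios have exact conditional intervals (scipy 1.17.1). With 1 library at each age no test was run. A count of 0 allows 3 counts, given as cells with a UMI. Genes were named by role, by the ends of each fixed list, and as nearest by Pearson's r over 7 classes. The endothelial marker sums, and the finer clusters described, were added after values were seen. A microglial marker of the fixed list, left out of the marker sums, is not reported here.

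Positions are from GENCODE M21 on GRCm38, and promoters from RefSeq on GRCm38.p6. A promoter was printed beyond 30 bases only where no annotated untranslated region overlapped it. A gene's 3′ end counted as uncertain when 50% of its 31-base words lay in another gene, which no member reached. On simulated sequences this found 100% of 80 copies and 0% of 40 single genes. Alternatives were another set of variable genes, other resolutions, a mean over cells, the old library, shared barcodes, no doublets, thinning, a pseudocount of 1 and no count minimum.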

Additional observations from a re-analysis of the deposited data

How the results depend on the processing

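The OPC-like old over young ratio of the 10 genes was 0.8575 with all cells and 1.01 without doublets, both with intervals that include 1. For the 7 microglial markers it was 0.633 with all cells, 1.98 over shared barcodes and 7.28 without doublets, and the cause was not tested. No paired analysis was possible because each age has 1 library and no test was made. Resolution 0.5, variable genes chosen from all genes, shared barcodes and no minimum on UMIs kept the class I values and counts run under them within counting error or within 1.5 times. At resolution 2 the 2 clusters that hold microglia-like cells stayed unnamed, so no value could be given for that class. As a mean over cells the microglia-like level was 33.2 UMIs per 10,000. Without doublets the astrocyte-like level was 4.08. The OPC-like level was 5.45 in the old library, 16.6% of the microglia-like level. With a pseudocount of 1, the genes called 2-fold higher numbered 2 in microglia-like and 1 in endothelial-like cells, and those 2-fold lower numbered 2 in pericyte-like, 2 in OPC-like, 4 in astrocyte-like, 4 in neuroblast-like and 5 in mature oligodendrocyte-like cells. No share of all genes is given at this pseudocount, so these counts have none to be set against. In the old library the microglial markers stood at 3.05% of their microglial level in endothelial-like, 4.50% in pericyte-like, 2.08% in OPC-like, 3.67% in astrocyte-like, 1.10% in neuroblast-like and 0.792% in mature oligodendrocyte-like cells. The ratio of cells with at least 2 to cells with 0 interferon-stimulated UMIs was 1.03 thinned in microglia-like cells, 1.11 thinned and 1.12 in the old library in endothelial-like cells, and 1.37 in the old library in astrocyte-like cells. Depth limits the rarer genes: Tap1 had 16 UMIs in endothelial-like cells.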

Other observations

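Blood-borne and perivascular immune cells, too few for the comparisons, had class I levels at or above those of microglia-like cells. The 10 genes had 43.6 UMIs per 10,000 (34.5 to 54.4) in 5 B cell-like cells and 42.8 (37.0 to 49.2) in 10 perivascular macrophage-like cells, in which inducible subunits made up 60.6% of the 6 proteasome subunits. Within a cluster that stayed unnamed as a whole, 5 cells that were T or NK cell-like by their markers had 134.8, with 44.9 for H2-K1, 35.4 for H2-D1 and 29.1 for B2m, and 4 neutrophil-like cells had 37.4. The leading genes of the neutrophil-like cells also held Cd74 and the class II genes H2-Aa and H2-Ab1, so their name is less sure.

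Other small groups were lower. Smooth muscle-like cells (14 cells) had 6.46 UMIs per 10,000 (4.93 to 8.32) and 3 choroid plexus-like cells 0.426. In 6 erythroid cell-like cells, also blood-borne, the level was 15.4. Within the neuroblast-like class, 10 Cajal-Retzius cell-like cells had 1.58. These groups hold few cells of 1 library, and their values are given as they stand.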
